A study of Mus musculus with 12 samples.

Results

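The genes described here are 10 enzymes of bile acid synthesis and conjugation, Cyp7a1, Cyp7b1, Cyp8b1, Cyp27a1, Cyp39a1, Hsd3b7, Akr1d1, Amacr, Slc27a5 and Baat. They were chosen by name for their place in the pathway, with earlier results of these data known. All 10 were among the 24527 genes of the count table, and all 10 were among the 13204 genes that passed the filter on low counts. Bulk poly-A RNA-seq was made from snap-frozen liver of 39-week-old mice, and the study compared offspring conceived in vitro (IVF) with naturally conceived offspring in each sex. There were 4 groups of 3 libraries: IVF females, IVF males, natural females and natural males. Both kinds of offspring came from CF1 females and B6SJL males, a cross of an outbred stock with a hybrid, so animals of a group were not genetically identical. The IVF groups carry everything that the IVF procedure involves, which the labels credit to a Jackson Laboratory protocol. The labels do not state the time of day of collection, feeding before collection or whether animals were littermates, and p-values measure the spread between these libraries.

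Bile acids are made from cholesterol in hepatocytes, and their synthesis is a main route by which the body disposes of cholesterol. In the classic pathway Cyp7a1 adds a hydroxyl group to the cholesterol ring in the first and rate-limiting step. In the alternative pathways the side chain is hydroxylated first, by Cyp27a1 and other enzymes, and the oxysterols formed are then hydroxylated on the ring by Cyp7b1 or Cyp39a1. Hsd3b7 and Akr1d1 next modify the ring, and Cyp8b1 directs intermediates to cholic acid. Amacr takes part in shortening the side chain in peroxisomes, and Slc27a5 and Baat join the finished acid to coenzyme A and then to taurine. Bile acids that return from the gut hold synthesis down through the receptor Nr1h4 (FXR), its target Nr0b2 (SHP), and the Fgfr4 and Klb receptor for an intestinal hormone.

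Of the 5 cytochrome P450 enzymes on the list, Cyp7a1, Cyp7b1, Cyp27a1 and Cyp39a1 hold the haem-binding signature common to the family, and their coding bases are shown because these related enzymes had unlike patterns across the livers. Capitals mark the 30 bases of the signature, flanked by 9 bases on each side, 5′ to 3′ on the coding strand, from the GENCODE M21 transcripts. The search found no match to the same pattern in Cyp8b1.
Cyp7a1: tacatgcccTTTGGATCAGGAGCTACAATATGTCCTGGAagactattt
Cyp7b1: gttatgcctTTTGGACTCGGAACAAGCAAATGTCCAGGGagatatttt
Cyp27a1: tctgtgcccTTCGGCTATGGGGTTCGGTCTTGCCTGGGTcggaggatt
Cyp39a1: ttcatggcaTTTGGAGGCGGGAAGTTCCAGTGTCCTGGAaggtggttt
Cyp7a1 and Cyp7b1 shared 20 of the 30 bases, Cyp7b1 and Cyp39a1 shared 19, and Cyp7a1 and Cyp39a1 shared 17. Cyp27a1, a mitochondrial enzyme, shared 14 with Cyp7a1, 12 with Cyp7b1 and 12 with Cyp39a1. Part of this sharing was set by the search, because the fixed residues of the pattern match in every pair. In residues, Cyp7a1, Cyp7b1 and Cyp39a1 shared 6 of 10 with one another, and each shared 5 of 10 with Cyp27a1.

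RefSeq promoter windows of GRCm38.p6, from 250 bases before to 50 bases after the start, were matched by symbol for 4 of the 10 genes: Cyp27a1, Akr1d1, Hsd3b7 and Cyp8b1. The window of Akr1d1 is shown because it was called lower in males in IVF animals and in the mean, though not in natural animals. That of Hsd3b7 is shown because it acts one step earlier and was not called between the sexes, which does not show that the sexes are equal. Capitals mark matches to the motifs searched on both strands, which were the NR5A2 half-sites CAAGGTCA and CAAGGCCA, the nuclear receptor half-site AGGTCA contained in the first of them, the HNF4 half-site CAAAGTCCA, the STAT motif TTCNNNGAA, the box CCAAT, the E-box CACGTG and the D-box TTATGNAA.
Akr1d1, chr6:37529923-37530222, plus strand: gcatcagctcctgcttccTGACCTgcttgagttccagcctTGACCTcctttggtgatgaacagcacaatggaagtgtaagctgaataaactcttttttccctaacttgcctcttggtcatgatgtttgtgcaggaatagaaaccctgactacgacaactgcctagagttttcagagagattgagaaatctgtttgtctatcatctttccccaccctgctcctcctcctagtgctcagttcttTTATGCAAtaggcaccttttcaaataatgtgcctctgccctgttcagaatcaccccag
Hsd3b7, chr7:127800359-127800658, plus strand: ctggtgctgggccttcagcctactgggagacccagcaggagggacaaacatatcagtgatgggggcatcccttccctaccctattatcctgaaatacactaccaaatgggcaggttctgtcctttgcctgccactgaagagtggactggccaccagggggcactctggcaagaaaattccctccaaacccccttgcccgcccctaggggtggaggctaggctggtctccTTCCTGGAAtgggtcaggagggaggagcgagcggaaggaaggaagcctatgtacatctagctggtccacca
The Akr1d1 window held the nuclear receptor half-site AGGTCA on the minus strand (read on the plus strand as TGACCT) at −232 and −210, and the D-box TTATGNAA at −8. AGGTCA was present in 16.257% of 32841 promoters and TTATGNAA in 3.386%. The Hsd3b7 window held a single match, to the STAT motif TTCNNNGAA at −21, a motif present in 8.298% of promoters. Cyp8b1 (chr9:121916256-121916555, minus strand) held the HNF4 half-site CAAAGTCCA at −67, which was in 0.475% of promoters. In Cyp27a1 (chr1:74713285-74713584, plus strand) CCAAT was found on the minus strand at −71 and −34, in 37.417% of promoters, and TTATGNAA at −60. These are matches of letters, and binding was not measured.

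Total counts ranged from 6826534 to 27832271 per library, and the 10 enzymes together took 0.201% to 0.349% of them. IVF female replicate 1 (6826534 counts) and natural female replicate 2 (8056230 counts) were the shallowest, and both are marked in the plot of levels. These shallow libraries also stood apart by GC content: relative to the other 4 female libraries, the log2 difference had a median of 0.33 over the fifth of genes with lowest GC content and −0.56 over the fifth with highest. Hepatocyte markers were high in every library, with Alb at 44670 to 81520 CPM (a gene's counts scaled to a common library size with TMM normalisation factors), although Ass1 had few reads throughout. In bulk tissue, fewer cells of a type and less RNA per cell cannot be told apart.

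Per kilobase of exon, a scale on which genes can be compared, the order of the enzymes differed between the sexes mainly in the place of Cyp7b1. In natural females Slc27a5 was highest at 259.7 ± 122 CPM per kilobase (SD, n = 3), followed by Hsd3b7 (198 ± 108) and Cyp27a1 (172 ± 29.0). Baat (104 ± 8.10), Akr1d1 (103 ± 17.9) and Cyp8b1 (93.7 ± 59.5) lay together, below them came Cyp7a1 (48.6 ± 29.3), and Cyp7b1 (29.6 ± 12.2), Amacr (28.0 ± 7.38) and Cyp39a1 (22.9 ± 22.0) were lowest. Each neighbouring pair in that order differed by less than the larger of their SDs, apart from Cyp27a1 and Baat.

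In natural males the order per kilobase began with Cyp7b1 at 423 ± 80.2 CPM per kilobase, ahead of Slc27a5 (283 ± 61.8), Cyp27a1 (202 ± 45.6) and Hsd3b7 (180.3 ± 33.3). Cyp8b1 (126.5 ± 39.1) and Baat (126.3 ± 3.53) followed, then Akr1d1 (75.1 ± 7.46), Amacr (44.3 ± 1.56), Cyp7a1 (41.2 ± 20.3) and Cyp39a1 (4.79 ± 2.01). Neighbours within the larger of their SDs were Cyp27a1 and Hsd3b7, Cyp8b1 and Baat, and Amacr and Cyp7a1. In IVF males Cyp7b1 again led at 317 ± 13.1 CPM per kilobase, while in IVF females it was the second lowest, at a mean of 26.8.

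**Figure D1:**
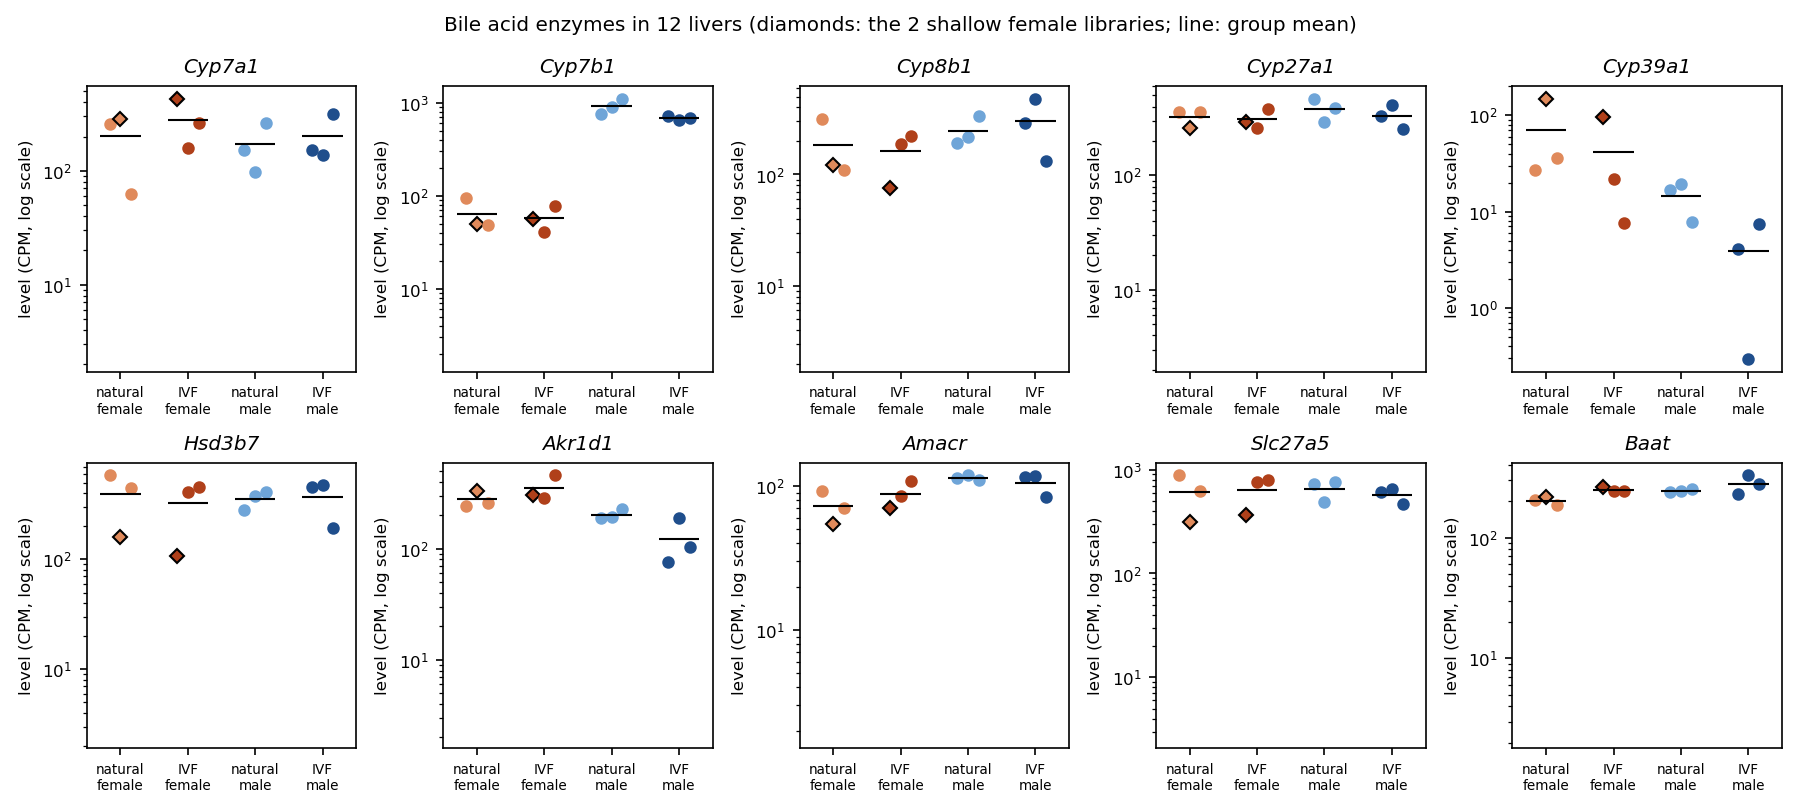
Level of each of the 10 enzymes in each of the 12 livers (CPM, log scale), with the group mean as a line and the 2 shallow female libraries as diamonds. Cyp7b1 separates all 6 males from all 6 females, and Cyp39a1 spreads widely within groups.

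The sexes differed in a few enzymes, above all Cyp7b1. Each comparison was made with edgeR's quasi-likelihood test, with Benjamini-Hochberg adjustment over all 13204 genes, and a gene is called at an adjusted p under 0.05. Among natural animals 1 of 10 was called (Cyp7b1, higher in males), where 1.77% of all genes were called and 0.894% were called higher in males. Groups did not overlap for 5 of the 10, against 20% of genes. Of these, Cyp7b1, Amacr and Baat were higher in males (10.1% of genes) and Cyp39a1 and Akr1d1 lower (9.85%). In IVF animals 2 of 10 were called, where 2.19% of genes were called. Cyp7b1 was higher in males, as 0.909% of genes were, and Akr1d1 lower, as 1.28% were, and 3 did not overlap (both of them and Cyp39a1), against 21.8% of genes. On average over both conceptions 3 of 10 were called, Cyp7b1 higher and Akr1d1 and Cyp39a1 lower in males, where 7.2% of genes were called, 3.57% higher and 3.63% lower. The median over the 10 enzymes was 0.18, 0.13 and 0.095 in these comparisons, against −0.02, 0.01 and −0.01 over all genes. The natural and IVF comparisons use separate libraries, but the mean uses both.

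**Figure D2:**
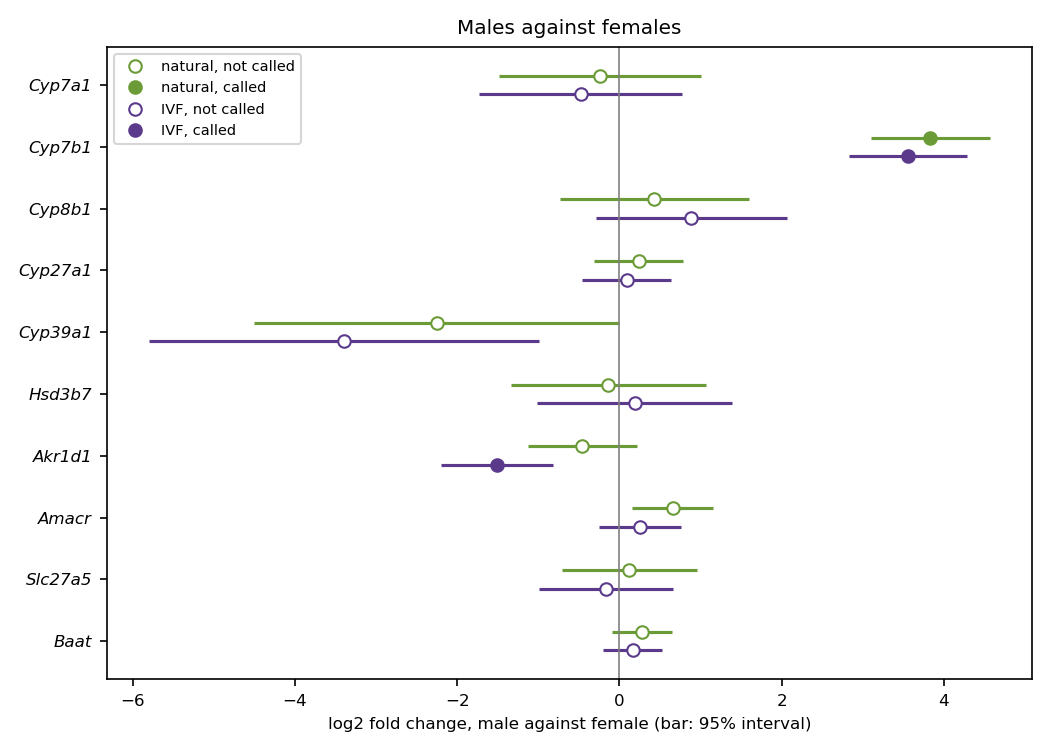
Fitted log2 fold change of males against females for each enzyme, with 95% intervals, in natural and IVF animals. Filled points passed the test: Cyp7b1 at 3.83 and 3.56, and Akr1d1 at −1.51 in IVF animals alone.

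Counted over the 10 enzymes, no difference by conception passed the test. In females 0 of 10 were called by edgeR, and 0 had an unadjusted p under 0.05, where 0% of all genes were called and 3.7% had such an unadjusted p. In males 0 of 10 were called and 1 (Akr1d1) had an unadjusted p under 0.05, where 0.00757% of genes were called and 2.69% had such a p. DESeq2 and limma voom also called 0 of the 10 in each sex. Groups did not overlap for 1 enzyme in females (Baat) and 2 in males (Cyp7b1 and Cyp39a1), against 7.42% and 8.91% of all genes. The median fitted difference over the 10 was 0.01 in females and −0.16 in males, against −0.015 and 0.0098 over all genes. For the difference between the sexes in the IVF effect and for the mean IVF effect, 0 of 10 were called in each. The shares of all genes called were 0% and 0.00757%, and 1 enzyme (Akr1d1) and 0 enzymes had an unadjusted p under 0.05, against 3.87% and 2.69% of genes.

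**Figure D3:**
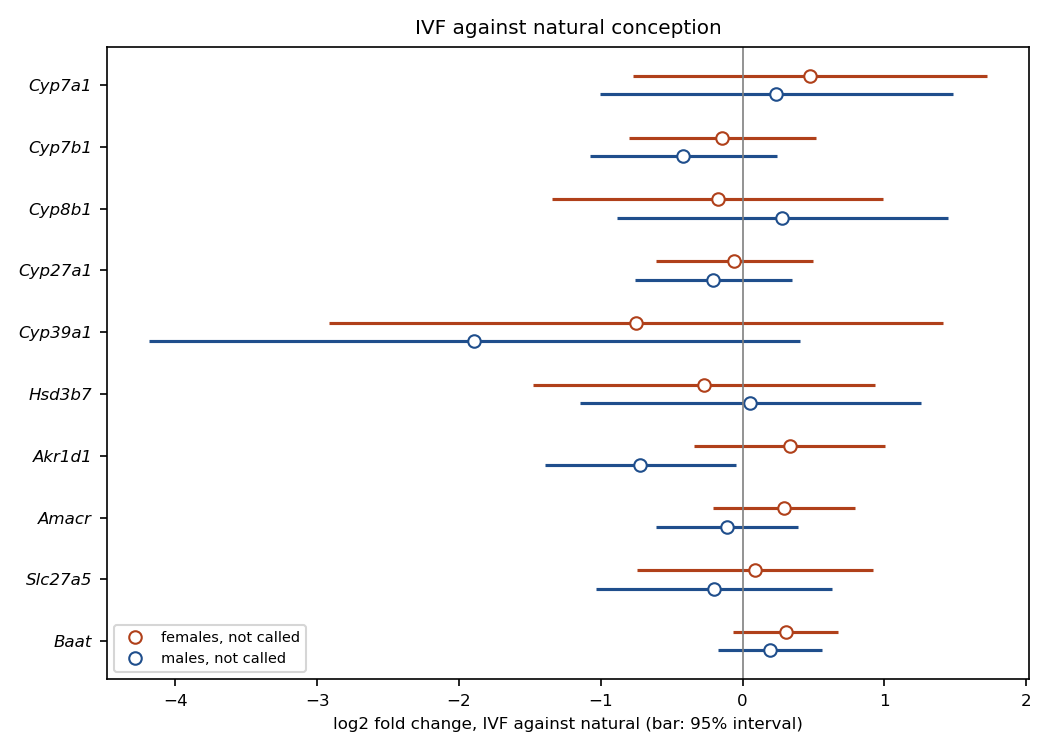
Fitted log2 fold change of IVF against natural livers for each enzyme, with 95% intervals, in females and males. All 20 points are open, meaning not called, and the widest intervals are those of Cyp39a1.

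Cyp7a1, the rate-limiting enzyme of the classic pathway (chr4:6265612-6275633, minus strand, GRCm38), varied within every group. It stood at 259, 287 and 62.7 CPM in natural females and at 427, 158 and 261 CPM in IVF females. In natural males the values were 153, 97.8 and 264 CPM, and in IVF males 152, 138 and 318 CPM. All 4 groups overlapped: the lowest value of the 12 and the highest were both in females, 6.81-fold apart. By the same edgeR test, IVF females differed from natural females by 0.48 on the log2 scale (SE 0.57, 95% interval −0.77 to 1.73, adjusted p = 1). The IVF difference in males was 0.24 (interval −1.01 to 1.48, adjusted p = 1), and males differed from females by −0.36 on average over both conceptions (interval −1.24 to 0.52, adjusted p = 0.618). Such intervals include changes of 2-fold in either direction in the within-group comparisons of conception, apart from a fall of that size in females. Without both shallow libraries the mean sex difference of Cyp7a1 was 0.00.

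Cyp8b1, the enzyme that sends intermediates to cholic acid (chr9:121914356-121916305, minus strand, a gene of 1 exon), was also variable. Natural females had 316, 122 and 109 CPM, IVF females 76.3, 188 and 220.1 CPM, natural males 190.2, 217 and 333 CPM, and IVF males 289, 476 and 133 CPM. No pair of groups was separated. The fitted IVF difference was −0.18 in females (SE 0.53) and 0.28 in males (SE 0.53). It was 0.49 in females without natural female replicate 1 and −0.23 in males without IVF male replicate 2. The mean difference of males from females was 0.66 (SE 0.38, adjusted p = 0.315). Within a liver, the ratio of Cyp8b1 to Cyp7a1 per kilobase ran from 0.382 (IVF female replicate 1) to 7.41 (IVF male replicate 2). It was 2.62, 0.911 and 3.74 in natural females, 0.382, 2.55 and 1.80 in IVF females, 2.66, 4.74 and 2.70 in natural males, and 4.08, 7.41 and 0.893 in IVF males. Both shallow libraries lay at the low end of this ratio in their groups.

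Cyp7b1, the oxysterol 7α-hydroxylase of the alternative pathway (chr3:18071950-18243338, minus strand), differed most between the sexes. It stood at 94.7, 49.5 and 48.1 CPM in natural females and at 55.8, 41.0 and 77.6 CPM in IVF females. Natural males had 746, 907.3 and 1094 CPM, and IVF males 715, 658 and 684 CPM. Every male lay above every female, and the lowest male exceeded the highest female by several times. Natural males were 14.3-fold higher than natural females (log2 3.83, SE 0.34, 95% interval of the fold 8.57 to 23.7, edgeR adjusted p = 7.565e-05). The difference was 11.8-fold in IVF animals (log2 3.56, SE 0.33, interval 7.13 to 19.5, adjusted p = 0.0001172) and 13.0-fold on average (interval 9.06 to 18.6, adjusted p = 2.092e-06). In each of these comparisons it was called under every alternative and after leaving out any 1 library. Per kilobase, the ratio of Cyp7a1 to Cyp7b1 was 0.676 to 3.97 in the 6 female livers and 0.056 to 0.241 in the 6 male livers. The highest female values, 3.97 and 3.01, were those of the shallow libraries, and the other female livers reached at most 1.99. Cyp27a1, whose oxysterol product Cyp7b1 can use, was 4.31 to 8.47 times Cyp7b1 in females and 0.370 to 0.719 times in males.

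By conception, Cyp7b1 in the 3 IVF males lay below the 3 natural males without overlap, with a mean of 686 ± 28.3 against 916 ± 174 CPM. The fitted difference was −0.42 (SE 0.30, interval −1.07 to 0.24, adjusted p = 1), which did not pass the test. In females the difference was −0.14 (SE 0.30, interval −0.80 to 0.52) with overlapping groups. The IVF effect did not differ detectably between males and females (difference of effects −0.27, SE 0.43, adjusted p = 0.9999).

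Cyp27a1, the mitochondrial sterol 27-hydroxylase that opens the acidic pathway and also acts on the side chain (chr1:74713574-74737892, plus strand), varied little. Levels were 357, 261 and 356 CPM in natural females, 293, 258 and 385 CPM in IVF females, 466, 294 and 389.7 CPM in natural males, and 329, 413 and 254 CPM in IVF males. The 4 groups overlapped, and the highest of the 12 values was 1.84-fold the lowest. Its fitted IVF difference was −0.06 in females (interval −0.61 to 0.49) and −0.21 in males (interval −0.76 to 0.35), so that a change of 2-fold lay outside both intervals. The mean sex difference was 0.16 (interval −0.23 to 0.55, adjusted p = 0.605).

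Cyp39a1, the 7α-hydroxylase that acts on 24-hydroxycholesterol (chr17:43667425-43751431, plus strand), had the widest range of the 10, 499.7-fold between the highest and lowest library. It stood at 26.8, 148 and 35.7 CPM in natural females and at 96.3, 22.0 and 7.57 CPM in IVF females. Natural males had 16.8, 19.4 and 7.71 CPM, and IVF males 4.05, 0.295 and 7.46 CPM, the lowest of these from 6 reads. The 2 highest values were those of the shallow female libraries. Their mean was 122 CPM against 23.0 CPM in the other 4 female libraries. Natural males lay below natural females, IVF males below IVF females, and IVF males below natural males without overlap. The margins of IVF males were narrow: their highest value, 7.46 CPM, was just under the lowest IVF female (7.57) and the lowest natural male (7.71).

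Averaged over both conceptions, Cyp39a1 was 7.08-fold lower in males (log2 −2.82, SE 0.75, edgeR adjusted p = 0.0444). The call was lost without both shallow libraries (−1.53, adjusted p = 0.121), with a covariate for them (−1.51, adjusted p = 0.0921) and with limma voom (−2.67, adjusted p = 0.0623). It was also lost in 10 of 12 single-library omissions (adjusted p up to 0.116, without natural male replicate 3), and held without IVF female replicate 3 or natural female replicate 1. Over the 10 omissions that lost it the value ran from −3.27 without IVF male replicate 3 to −2.10 without IVF female replicate 1. The separate differences of males from females, −2.25 in natural animals (SE 1.03, adjusted p = 0.334) and −3.39 in IVF animals (SE 1.10, adjusted p = 0.162), did not pass. By conception, the difference was −0.75 in females (SE 0.99) and −1.89 in males (SE 1.05, interval −4.19 to 0.40), with adjusted p = 1 in each. In females it ran from −2.20 without IVF female replicate 1 to 0.40 without natural female replicate 2. In males it ran from −2.80 without IVF male replicate 3 to −1.34 without IVF male replicate 2. The difference of males from females was −1.09 in natural animals without natural female replicate 2, and −1.95 in IVF animals without IVF female replicate 1.

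Hsd3b7, which oxidises the ring after 7α-hydroxylation (chr7:127800604-127803802, plus strand), was lowest in the shallow female libraries. Natural females had 580.2, 159 and 443 CPM and IVF females 108, 413 and 457 CPM, where 159 and 108 CPM belong to the shallow libraries. Natural males had 284, 379.5 and 411 CPM, and IVF males 451, 472 and 193 CPM. The groups overlapped in each comparison, with a fitted IVF difference of −0.27 in females (SE 0.55) and 0.05 in males (SE 0.55). The mean sex difference was 0.03 (SE 0.39, adjusted p = 0.977), and −0.39 without both shallow libraries. Exons of Hsd3b7 overlap those of Gm49388 on the same strand over 1665 bases and of 9430064I24Rik on the opposite strand over 970 bases. Neither was listed in the count table, and whether the counting used strand is not given in the sources used here.

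Akr1d1, the 5β-reductase that gives bile acids their bent ring system (chr6:37530173-37568815, plus strand, with the promoter shown above), was lower in males. It stood at 245, 333 and 256 CPM in natural females and at 307, 287 and 456 CPM in IVF females. Natural males had 188, 194 and 226 CPM, and IVF males 76.1, 189 and 104 CPM. Every male lay below every female, and the lowest 2 values were IVF males. IVF males were 2.84-fold lower than IVF females (log2 −1.51, SE 0.31, interval −2.19 to −0.82, edgeR adjusted p = 0.0284). On average over both conceptions males were 1.97-fold lower (log2 −0.98, SE 0.22, adjusted p = 0.0220), while the difference in natural animals, −0.46 (SE 0.31, adjusted p = 0.530), did not pass although the groups did not overlap.

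The Akr1d1 call in IVF animals was lost when only the compared groups entered the fit (−1.51, adjusted p = 0.117) and in 5 of 12 single-library omissions. These were IVF female replicate 2 (−1.63, adjusted p = 0.0531) or 3 (−1.27, 0.0985), IVF male replicate 1 (−1.25, 0.0945) or 3 (−1.40, 0.144) and natural male replicate 3 (−1.51, 0.0503). The mean call was lost without IVF male replicate 3 (−0.93, adjusted p = 0.0648), natural male replicate 1 (−0.95, 0.0529) or natural male replicate 2 (−0.98, 0.0523). By conception, IVF males were at −0.72 relative to natural males (SE 0.31, interval −1.40 to −0.04, unadjusted p = 0.0386, adjusted p = 1), and IVF females at 0.33 relative to natural females (SE 0.31). The difference between these effects was −1.05 (SE 0.44, unadjusted p = 0.0333, adjusted p = 0.9999). The effect of IVF on Akr1d1 was therefore not shown in either sex, nor shown to differ between them. IVF males also had the lowest sums of 7 hepatocyte markers, 73960 to 83760 CPM, against 91240 to 94100 in natural males, 94730 to 112100 in IVF females and 91880 to 103600 in natural females. Their 9 Kupffer cell markers summed to 145.6 to 218.2 CPM, against 260 to 280.3 in natural males, 294.8 to 431.2 in IVF females and 311 to 379.4 in natural females. Alb alone stood at 44670 to 81520 CPM over the 12 libraries and made up most of the hepatocyte sum. In IVF against natural males 6 of the 7 hepatocyte markers were below 0 and 1 above, and 0 were called. In IVF males against IVF females 4 were below 0 and 3 above, and again 0 were called. Of the 9 Kupffer cell markers, 0 were called by conception in males, and 3 were called lower in males among IVF animals. The 8 periportal hepatocyte markers had their highest median sum in IVF males, 4506 CPM (natural males 3715, IVF females 3741, natural females 2658). Sums of 9 pericentral hepatocyte markers overlapped (IVF males 8594 to 11960 CPM, natural males 9998 to 12760). By conception in males, 5 of the 8 and 7 of the 9 were below 0, and 0 were called. The part of these markers in the Akr1d1 values was not tested. The ratio of Hsd3b7 to Akr1d1 per kilobase was 2.52 to 8.05 in IVF males, 2.05 to 2.65 in natural males, 0.478 to 1.96 in IVF females and 0.648 to 3.22 in natural females, with both shallow libraries lowest.

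**Figure D4:**
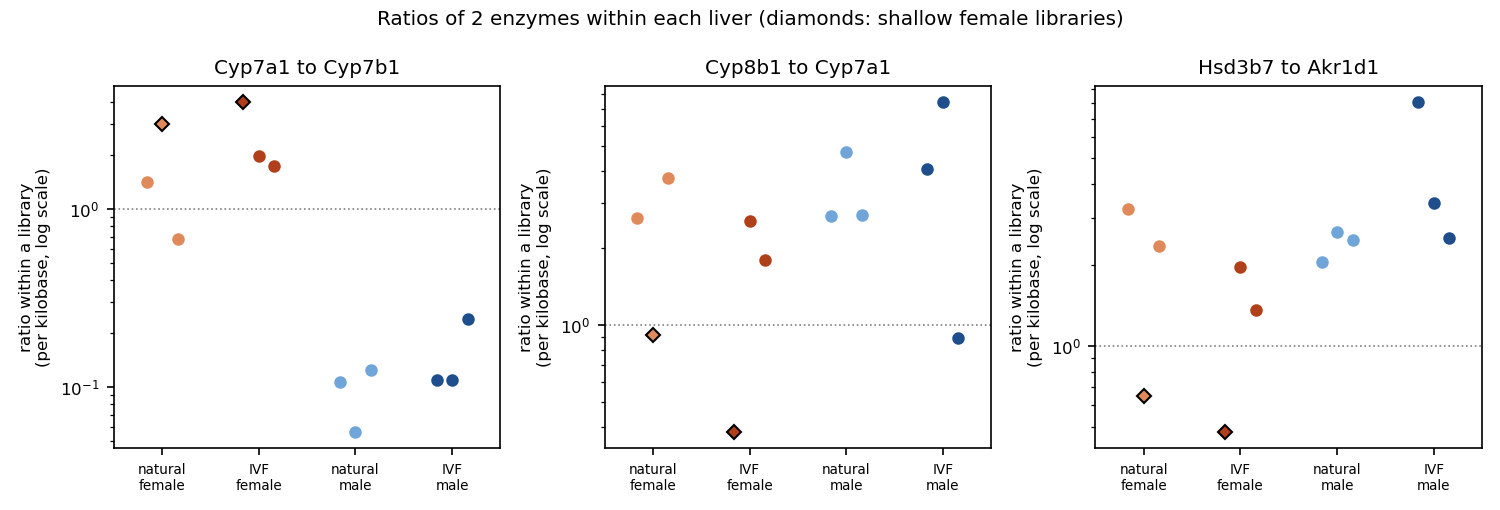
Ratio of 2 enzymes within each liver, per kilobase of exon on a log scale, by group, with shallow female libraries as diamonds and a dotted line at equal levels. The Cyp7a1 to Cyp7b1 ratio lies between 0.056 and 0.241 in males and between 0.676 and 3.97 in females, where the shallow libraries are highest. The Cyp8b1 to Cyp7a1 and Hsd3b7 to Akr1d1 ratios overlap between the sexes.

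Amacr, the racemase that prepares the side chain for shortening (chr15:10981756-10996626, plus strand), had 92.1, 54.2 and 70.45 CPM in natural females and 70.5, 85.5 and 109 CPM in IVF females. Natural males stood at 113, 118 and 111 CPM, and IVF males at 115, 117 and 84.3 CPM. Natural males lay above natural females without overlap and were close to each other (114 ± 4.02 CPM, SD, n = 3). The difference, 0.66 (SE 0.23, unadjusted p = 0.0148, adjusted p = 0.201), did not pass, nor did the mean difference of 0.46 (SE 0.16, adjusted p = 0.115). By conception the differences were 0.29 in females (SE 0.23) and −0.11 in males (SE 0.23).

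Slc27a5, the ligase that activates bile acids with coenzyme A (chr7:12988346-12998192, minus strand), stood at 879, 312 and 624 CPM in natural females and 367, 758 and 803 CPM in IVF females. In natural males it was 728, 493 and 755 CPM, and in IVF males 610.2, 645 and 462 CPM. The lowest value in each female group was its shallow library, and no pair of groups was separated. Fitted differences by conception were 0.09 in females (SE 0.38) and −0.20 in males (SE 0.38), and the mean sex difference was −0.02 (SE 0.27), or −0.34 without both shallow libraries.

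Baat, the transferase that joins the acid to taurine (chr4:49489422-49506557, minus strand), was the steadiest of the 10. Natural females had 207, 216 and 185 CPM, IVF females 262, 246 and 242 CPM, natural males 241, 242 and 253 CPM, and IVF males 231, 328 and 280.3 CPM. All IVF females lay above all natural females, with means of 249.8 ± 10.6 and 203 ± 15.7 CPM. The difference, 0.30 (SE 0.17, interval −0.07 to 0.67, unadjusted p = 0.0983, adjusted p = 1), did not pass, and in males it was 0.19 (SE 0.17) with overlapping groups. A 2-fold change lay outside the interval in both sexes. The within-group SD of Baat was 0.14 on the log2 scale, smaller than in 91.1% of the 2591 genes with at least 50 CPM, while that of Cyp7a1, 0.86, was exceeded in 4.17% of them. Other values were 1.63 for Cyp39a1, 0.86 for Hsd3b7, 0.78 for Cyp8b1, 0.54 for Slc27a5, 0.40 for Akr1d1, 0.39 for Cyp7b1, 0.31 for Cyp27a1 and 0.28 for Amacr. The median was 0.32 over the 2591 genes with at least 50 CPM and 0.38 over all genes tested.

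Several enzymes stood apart in the shallow libraries, and the enzymes with the 4 highest GC contents were all lower there. Against the other 4 female libraries the log2 difference was −1.84 for Hsd3b7 (53.89% GC), −1.17 for Slc27a5 (53.15%) and −1.01 for Cyp8b1 (54.82%). It was 1.12 for Cyp7a1 (39.69%) and 2.57 for Cyp39a1 (43.66%), and small for Akr1d1 at 0.09 (40.87%) and Baat at 0.12 (44.87%). Amacr (48.82%) lay at −0.51, Cyp27a1 (53.49%) at −0.27 and Cyp7b1 (42.52%) at −0.23. The median over all genes tested was −0.04. The part of depth and GC content in these differences was not tested.

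**Figure D5:**
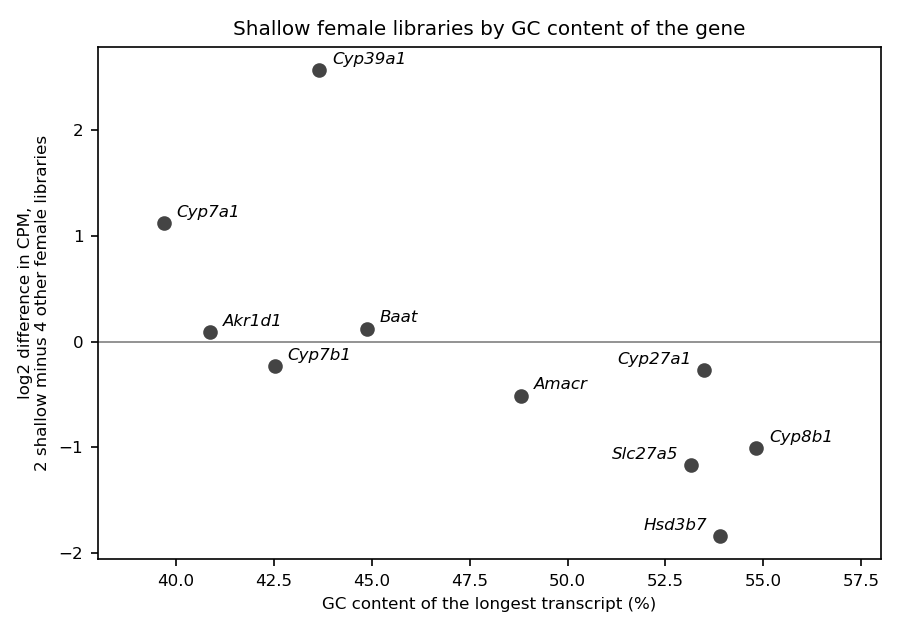
Log2 difference in level between the 2 shallow and the 4 other female libraries against the GC content of the longest transcript of each enzyme (percent). Cyp39a1 (2.57) and Cyp7a1 (1.12) lie above 0 and the 4 enzymes of highest GC content lie below it, with Hsd3b7 lowest at −1.84.

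The regulators of synthesis were not called by conception in either sex (0 of 17 in each). Nr1h4, the bile acid receptor, stood at 78.1 ± 22.8 CPM in natural females, 85.9 ± 4.52 in IVF females, 86.3 ± 18.3 in natural males and 99.2 ± 12.0 in IVF males. Its target Nr0b2, a repressor of Cyp7a1 and Cyp8b1, stood at 10.8 ± 2.96, 15.2 ± 2.40, 23.3 ± 10.1 and 25.3 ± 11.2 CPM in the same order. The mean difference of males from females in Nr0b2, 0.92 (SE 0.27, adjusted p = 0.0648), did not pass. Nr5a2, an activator of both genes, was at −0.51 (SE 0.16, adjusted p = 0.0816), Klb at −0.47 (SE 0.23, adjusted p = 0.243), Fgfr4 at −0.07 (SE 0.18, adjusted p = 0.837) and Nr1h4 at 0.18 (SE 0.16, adjusted p = 0.527). Only Ppargc1a, a transcriptional coactivator of fasting metabolism, was called among the 17, and only in the mean of both conceptions (−1.40 in males, SE 0.38, adjusted p = 0.0475).

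Among 14 other enzymes and carriers of the pathway that passed the filter, of 16 listed, 0 were called by conception in either sex. Scp2, whose product includes a thiolase of side-chain shortening, was higher in males in natural animals (1.05, SE 0.22, adjusted p = 0.0356) and in IVF animals (1.17, SE 0.22, adjusted p = 0.0174). It was the only one of the 14 called in each. In the mean, Sult2a8, a sulfotransferase (0.88, SE 0.19, adjusted p = 0.0185), and Akr1c14, a hydroxysteroid dehydrogenase (0.79, SE 0.17, adjusted p = 0.0175), were called as well. The Akr1c and Sult2a families hold near-identical members, and how reads were divided among them is not known here.

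Of 13 transporters that passed the filter, 0 were called by conception. Abcc4, which exports bile acids to the blood, stood at 6.28 ± 1.93 CPM in natural females, 14.4 ± 3.82 in IVF females, 1.60 ± 0.534 in natural males and 3.28 ± 0.375 in IVF males. Its fitted difference by conception was 1.21 in females (SE 0.31, unadjusted p = 0.00197, adjusted p = 1) and 1.02 in males (SE 0.32, unadjusted p = 0.00794, adjusted p = 1). It was lower in males in natural animals (−1.95, SE 0.32, adjusted p = 0.00971) and in IVF animals (−2.13, SE 0.31, adjusted p = 0.0038). Slco1a4, an uptake carrier, was called in IVF animals (−2.84, SE 0.59, adjusted p = 0.0276). Slco1a1, another uptake carrier, was higher in males in the mean (2.33, SE 0.56, adjusted p = 0.0303), where Abcc4 and Slco1a4 were lower (−2.04 and −2.31). The uptake carrier Slc10a1 and the export pump Abcb11 were not called in any comparison and are named here by choice after their values were seen. Mean Abcb11 was 528 ± 163 CPM in natural females, 543 ± 67.3 in IVF females, 483 ± 75.6 in natural males and 335 ± 64.1 in IVF males. Mean Slc10a1 was 403.2 ± 58.69, 535 ± 95.13, 415.3 ± 98.95 and 406 ± 89.1 CPM in the same order.

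Genes of cholesterol synthesis, which makes the substrate, were not called in any comparison (0 of 23), but natural females lay below both IVF females and natural males in the fitted values of all 23. With TMM scaling, the median was 0.98 for IVF against natural females, where 47.8% of all genes were above 0, and 0.96 for natural males against natural females, where 47.9% were. These 2 comparisons share the natural female libraries. For IVF against natural males 2 of 23 were above 0 with a median of −0.23, where 51.6% of all genes were. Clock genes were read because synthesis of bile acids is rhythmic and the time of collection was not given. Of 16 tested, Arntl was called in natural animals (−2.58 in males, SE 0.50, adjusted p = 0.0244), with 4.23 to 22.2 CPM in natural females and 2.10 to 2.65 CPM in natural males. Arntl (−1.69, adjusted p = 0.0150) and Per2 (1.14, adjusted p = 0.0411) were called in the mean. In IVF females Arntl was at 2.91 to 6.69 CPM, and in IVF males at 2.47 to 2.85 CPM. Mean Per2 was 12.97 CPM in natural females, 30.05 in IVF females, 44.31 in natural males and 42.22 in IVF males. By conception 0 of the 16 were called by edgeR. An unadjusted p under 0.05 was found for 5 in females and 1 in males, against 3.7% and 2.69% of all genes. Between the sexes such a p was found for 8 in natural animals and 0 in IVF animals. The share of all genes with such a p between the sexes is not given here, and the shares by conception do not apply. More genes differed by sex in any case: groups did not overlap for 20% in natural animals and 21.8% in IVF animals. By conception they did not overlap for 7.42% in females and 8.91% in males. The count of 8 is therefore not read as a result about clock genes. The part of clock time in the levels of Cyp7a1 and the other enzymes was not tested.

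Textbook sex-biased liver genes gave the setting for Cyp7b1. Of 12 male-biased genes 9 were called higher in males in natural animals and 9 in IVF animals, and all 15 female-biased genes tested were called lower in each. By the mean absolute difference of centred log2 CPM over the 12 libraries, the genes most like Cyp7b1 among 7362 genes with at least 10 CPM were Gstp1 (0.36), Dpy19l3 (0.42) and C6 (0.48), where the median over genes was 1.84. Gstp1 has a near-identical neighbour, so its reads may be shared. For Cyp7a1 they were Pdia5 (0.35), Pcca (0.37) and Golga3 (0.39), against a median of 0.68, and for Cyp8b1 Ap2s1 (0.28), Oaf (0.28) and Extl1 (0.29), against 0.63. Cyp39a1 had no close match: its nearest genes, Ifi207 (1.02), Acnat2 (1.03) and Cd300ld (1.04), were compared with a median of 1.64. The nearest genes lie below the median because they were picked as nearest, so that comparison tests nothing. The mean absolute deviation of the gene itself was 1.87 for Cyp7b1, 0.65 for Cyp7a1, 0.60 for Cyp8b1 and 1.61 for Cyp39a1. For Cyp7a1, Cyp8b1 and Cyp39a1 the nearest genes left a large part of that deviation unmatched.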

How the data were processed

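Poly-A RNA from 12 livers was sequenced on an Illumina NextSeq 500, per the labels' protocols. The authors deposited whole-number counts per gene symbol in 1 table with 1 column per library. The submitters' processing notes name Trimmomatic 0.32, STAR 2.3.0e, featureCounts 1.5.0 and the build mm10; their settings, including strand, annotation and reads that match more than 1 gene, are not given in the sources used here. Columns were matched to samples by their titles, groups came from the labels, and replicates were numbered in accession order, which pairs nothing.

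Genes with low counts were removed with edgeR's filterByExpr by group, leaving 13204 of 24527. TMM factors were computed, 1 quasi-likelihood model (edgeR 4.0.16, R 4.3.3) with a mean per group was fitted to all 12 libraries, and p-values were adjusted by Benjamini-Hochberg over all genes tested. An adjusted p under 0.05 is a call. Standard errors are the log2 fold change over the square root of F, and intervals are at 95%. The fit was tested on simulated data for IVF against natural females. It called 25 of 100 genes changed 2-fold, 82 of 100 changed 4-fold and 7 of 12834 unchanged. The simulated counts kept the library sizes and the fitted spread, with the same mean in every group apart from the changed genes. They held no difference between the sexes and none by GC content in the shallow libraries, so these rates need not hold for the real libraries. CPM are TMM-scaled, and CPM per kilobase use the union of exons of GENCODE M21 (GRCm38), from which positions and GC content also come. GC content was known for 12932 of the genes tested (97.94%).

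Alternatives were DESeq2 1.42.0 size factors and Wald test, library size alone, limma 3.58.1 voom, other filters, only the groups compared, leaving out or a covariate for both shallow libraries, a GC offset, no Rn45s, and leaving out each library. All 10 enzymes are named. From each other list at most 5 called genes per comparison are named, largest change first, with a mean of at least 1 CPM in the higher group, and the regulators Nr1h4, Nr0b2, Nr5a2, Fgfr4 and Klb are named whatever their values. The members and lists were chosen with earlier results of these data known.

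Marker lists of other sources were summed per library. Cholangiocyte markers came to 41.5 to 236.1 CPM and lymphocyte markers to 2.56 to 7.31 CPM, kidney markers to at most 0.058 CPM, and erythroid markers to 6.69 to 176.2 CPM. Of these Alas2 was at 6.61 to 174.4 CPM and Slc4a1 at 0.0831 to 27.4 CPM, Hba-a1 had at most 10 counts, and Hba-a2, Hbb-bs and Hbb-bt had 0 counts in all 12 libraries.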

Additional observations from a re-analysis of the deposited data

How the results depend on the processing

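Cyp7b1 was called in natural, IVF and mean comparisons of the sexes under every alternative, at a log2 value of 3.46 to 3.92, and in every fit without 1 library. Of 1580 fitted values of the 10 enzymes under the alternatives, 92 changed sign, and 0 of those were called. In IVF males against females 2 enzymes were called, 1 when only the groups compared entered the fit (12741 genes tested, and a spread from 6 libraries), and 1 to 2 when each library was left out in turn. In the mean of males against females 3 were called, 2 with limma voom, without both shallow libraries or with a covariate for them, and 1 to 3 when each library was left out in turn. The cause was not tested. By conception 0 of 10 were called under every alternative and every fit without 1 library.

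Over all genes, counts of calls for natural, IVF and mean differences of the sexes were 234, 289 and 951. DESeq2 called 648, 688 and 1642, with 4, 2, 6 and 4 genes by conception in females, in males, for the difference of effects and for the mean effect, where edgeR called 0, 1, 0 and 1 and limma voom 0. Library size alone called 510, 313 and 1625 genes and moved the median of all genes to −0.34, −0.10 and −0.22, and to 0.14 in IVF against natural males. With it 88 were higher and 422 lower in natural animals, 92 and 221 in IVF animals, and 252 and 1373 in the mean, against 118 and 116, 120 and 169, and 472 and 479 with TMM. A covariate for the shallow libraries called 458 and 438 in natural and IVF animals, and the natural groups alone gave 139. The GC offset gave 0 genes for the mean IVF effect. Without 1 library the counts ran from 111 to 263, 137 to 348 and 519 to 810.

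No paired analysis was possible because the groups share fewer than 2 numbers in their titles, and the labels do not say what those numbers mean. The titles of IVF female replicate 1, a shallow library, and IVF male replicate 2 share the first part of theirs. With 3 libraries a group, intervals for 7 of the 10 enzymes (all but Cyp27a1, Amacr and Baat) include differences by conception of 2-fold or more in at least 1 sex. Fewest reads stood behind Cyp39a1 in males.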
